A study of Mus musculus with 5 samples.

Results

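A group of 9 genes that accompany the selection of T cells in the thymus and their exit from it were described in lung tumours of a small cell lung cancer (SCLC) mouse model: Themis, Cd69, Cd5, Itm2a, Ccr9, Ccr7, S1pr1, Klf2 and Il7r. They belong to 32589 genes listed in the deposited single-cell matrices, were chosen by name, and were found in all 5 libraries. All mice carried floxed Rb1 and Trp53 alleles, which adenoviral Cre given into the airways deletes in the lung, and therapy began when a lesion was measurable, months after induction. The groups were vehicle (PBS), anti-PD-1, an antibody against the PD-1 receptor of T cells, ERBB2i (mubritinib, an oral inhibitor of the receptor tyrosine kinase ERBB2), the combination of both agents, and the combination in response, labelled in this way and called CR below. Both agents were dosed at 10 mg/kg, repeated at intervals of 3 days. Each group was 1 library, so no difference had a replicate check, no test was made, and all 95% intervals cover counting error only.

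In the thymus, immature T cells that carry both CD4 and CD8 rearrange their antigen receptor with the recombinases Rag1 and Rag2 and the polymerase Dntt. Cells whose receptor binds self peptide weakly survive, a step in which Themis tunes the signal and Cd69, Cd5 and Itm2a are induced. Selected cells gain Ccr7 to enter the medulla, become CD4 or CD8 single positive, and leave when the factor Klf2 switches on the sphingosine phosphate receptor S1pr1, while Il7r serves their survival. Mature T cells in blood and tissue keep Klf2, S1pr1, Ccr7 and Il7r until they are activated.

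The levels below are therefore given by Cd4 and Cd8a detection. T-lineage cells had at least 1 unique molecular identifier (UMI, a tag that counts 1 captured RNA molecule) of Cd3e, Cd3d or Cd3g and none of the neuroendocrine genes Chga and Chgb. They were split by whether Cd4 and Cd8a were detected (neither, both, Cd4 only, Cd8a only) and by whether Rag2 or Dntt was detected (Rag2/Dntt-positive or negative). Levels are CPM, the UMIs of a gene over all cells of a class divided by the total of that class and multiplied by 1000000. A gene not detected in a cell may still be expressed in it, so a class holds cells whose other coreceptor was missed.

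Promoter sequence was at hand for 6 of the 9 members, and 3 windows are shown because these genes stood at opposite ends of the pattern described below, Themis and Ccr9 at one and Klf2 at the other. Each window is the stretch of 250 bases before the annotated start, which lies outside the gene itself, taken from RefSeq on GRCm38.p6, 5′ to 3′ on the strand of the gene. Capitals mark the E-box CANNTG, the recognition core of E proteins, which act in early T cells.
Themis, chr10:28668110-28668359, plus strand: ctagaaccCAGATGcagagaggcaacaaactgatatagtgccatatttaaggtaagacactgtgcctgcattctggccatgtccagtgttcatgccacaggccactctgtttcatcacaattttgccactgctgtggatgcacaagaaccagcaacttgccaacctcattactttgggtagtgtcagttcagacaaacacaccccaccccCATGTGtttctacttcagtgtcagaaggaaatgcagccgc
Ccr9, chr9:123766961-123767210, plus strand: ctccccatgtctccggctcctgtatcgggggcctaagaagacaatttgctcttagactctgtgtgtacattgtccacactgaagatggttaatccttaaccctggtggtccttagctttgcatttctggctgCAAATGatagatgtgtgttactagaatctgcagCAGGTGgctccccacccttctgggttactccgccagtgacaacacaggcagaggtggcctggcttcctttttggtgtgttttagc
Klf2, chr8:72318812-72319061, plus strand: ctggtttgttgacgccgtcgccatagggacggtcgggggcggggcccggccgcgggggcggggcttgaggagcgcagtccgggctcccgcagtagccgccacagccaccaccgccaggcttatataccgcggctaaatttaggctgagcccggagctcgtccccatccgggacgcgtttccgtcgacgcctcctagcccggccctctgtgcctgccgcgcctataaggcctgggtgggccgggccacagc
The E-box stood 2 times in the Themis window, 2 times in that of Ccr9, 2 times in that of Cd5, 1 time in that of Itm2a, 3 times in that of Il7r and 0 times in that of Klf2, and 66.2% of 32851 promoter windows of this length held at least 1. Of the other motifs searched on both strands, the KLF motif CACCC occurred 5 times in the Itm2a window, 2 times in that of Themis, 1 time each in those of Ccr9 and Klf2 and 0 times in those of Il7r and Cd5, against 52% of all windows with at least 1. The FOXO motif GTAAACA (3.17% of all windows), the RUNX motif TGTGGT (14%) and the TCF/LEF motif TTCAAAG (4.46%) were found in none of the 6 members' windows. These motifs may overlap one another, and a match or its absence is a description of these letters only.

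The libraries held 21624506 to 88497833 UMIs over 9718 to 27210 barcodes, and 7260 to 22225 cells per library were retained. T-lineage cells numbered 2 in vehicle, 4264 with anti-PD-1, 1229 with ERBB2i, 281 with the combination and 7253 in CR. The vehicle library therefore enters none of the comparisons of T-lineage cells below. Cells with Chga or Chgb and no Cd3 UMI, taken as tumour cells, numbered 4445 to 19191 in the other libraries but 1 in CR, so the labelled tumour tissue was nearly absent from that library. In its T-lineage cells the tumour markers summed to 3.87 CPM, against 63.1 with anti-PD-1, 219 with ERBB2i and 773 with the combination. Between 69 and 79 barcodes were shared by each pair of vehicle, CR and anti-PD-1, and 782 by ERBB2i and the combination, 2.97% of the smaller set. Barcodes had 27 bases in the former libraries and 24 in the latter, so the comparisons between anti-PD-1 or CR and ERBB2i cross this difference, which cannot be told apart from treatment. Fewer cells of a state and less RNA of a gene per cell cannot be told apart in a summed level.

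Cells with both coreceptors were common in the anti-PD-1 and CR libraries and nearly missing elsewhere. They made up 25.9% (24.6 to 27.3) of T-lineage cells with anti-PD-1 and 42.4% (41.2 to 43.5) in CR, but 3 of 1229 cells with ERBB2i and 0 of 281 with the combination, where a count of 0 allows up to 1.3%. Of the cells with both, 89.2% with anti-PD-1 and 88.3% in CR were Rag2/Dntt-positive. Among Cd4-only cells this share was 37.9% and 55.8%, against 1 of 145 cells with ERBB2i and 0 of 23 with the combination. The plot of class shares shows this division. The 6 thymic epithelial markers summed to 13.4 CPM in T-lineage cells of anti-PD-1, 23.9 with ERBB2i, 25.5 with the combination and 17.5 in CR. Gene by gene, 0 of the 6 were at 0 UMIs with anti-PD-1 and 1, the defining gene Foxn1, in CR, against 4 (Foxn1, Psmb11, Tbata and Aire) with ERBB2i and with the combination, where fewer UMIs were counted. Over all retained cells 0 were at 0 in anti-PD-1 and CR, 3 in vehicle and 1 each in the other libraries. Their part in the T-lineage classes was not tested.

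**Figure D1:**
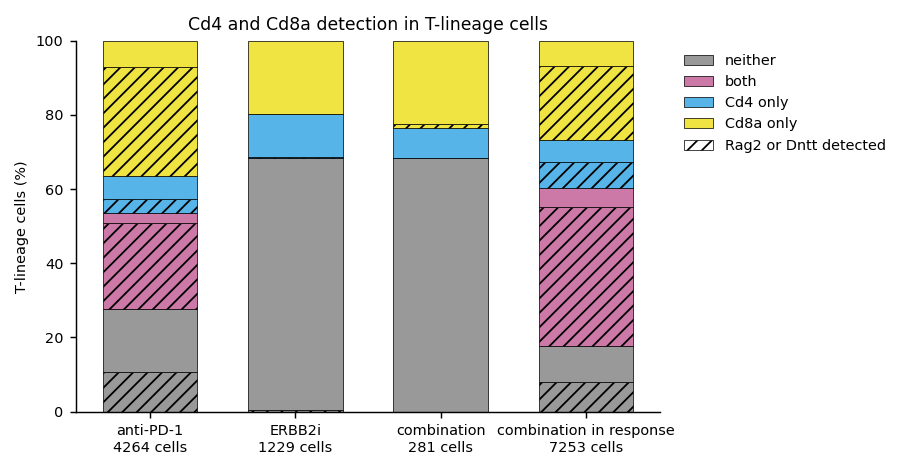
Share of T-lineage cells (y axis, %) in 4 libraries (x axis, with the number of cells) by detection of Cd4 and Cd8a (colours), hatched where Rag2 or Dntt was detected. Cells with both coreceptors and hatched cells fill much of the anti-PD-1 and combination in response bars and nearly none of the other bars.

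Themis, which tunes receptor signalling during selection, was high across all classes of CR and moderate elsewhere. In cells with both coreceptors it was 346 CPM (325 to 368) with anti-PD-1 and 1629 CPM (1595 to 1663) in CR. In Cd4-only Rag2/Dntt-negative cells it was 204 CPM with anti-PD-1, 249 with ERBB2i, 35.6 with the combination from 1 UMI, and 1494 in CR. In Cd8a-only Rag2/Dntt-negative cells the levels were 285, 241, 84.9 and 1619 CPM in the same order. The highest of 21 strata with at least 50 cells was Cd4-only Rag2/Dntt-positive in CR at 3207 CPM (3073 to 3346), above the next, Rag2/Dntt-negative cells with both at 2644 CPM (2495 to 2799), beyond their intervals. At least 1 Themis UMI was seen in 73.9% of T-lineage cells of CR (48.9% with every cell thinned to 500 UMIs) and in 36% (15.2%) of those of anti-PD-1. In cells that should lack Themis the share was 2.18% of the tumour cells of anti-PD-1 (0.45% thinned, median depth 3183 UMIs) and 19.2% (11.5%) of the 26 B cells of CR (median depth 1965 UMIs), whose Themis level was 539 CPM. In the 223 B cells of anti-PD-1 the share was 2.24% (0.448%, median depth 1399 UMIs) and the level 29.6 CPM.

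Cd69, an early activation antigen that holds cells in tissue, stood lowest in Rag2/Dntt-positive cells of anti-PD-1. In cells with both coreceptors it was 14.5 CPM (10.4 to 19.6) with anti-PD-1 and 68.4 CPM (61.7 to 75.6) in CR. In Cd4-only Rag2/Dntt-negative cells the levels of the libraries lay close together, at 242 CPM with anti-PD-1, 204 with ERBB2i, 178 with the combination and 262 in CR, with overlapping intervals. Cd8a-only Rag2/Dntt-negative cells held 210, 349, 189 and 209 CPM. The highest 2 strata, ERBB2i Cd8a-only at 349 CPM (288 to 418) and CR with neither coreceptor at 341 CPM (307 to 378), did not differ beyond their intervals, nor did the lowest, anti-PD-1 Cd8a-only Rag2/Dntt-positive at 7.36 CPM and both Rag2/Dntt-positive at 7.67 CPM.

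Cd5, a scavenger-type receptor that dampens receptor signals and reports their strength, ran the same way in the classes. Cells with both held 68.6 CPM with anti-PD-1 and 161 CPM in CR. In Cd4-only Rag2/Dntt-negative cells Cd5 was 634 CPM (555 to 721) with anti-PD-1, 426 (336 to 532) with ERBB2i, 462 (246 to 791) with the combination and 593 (536 to 654) in CR. In Cd8a-only Rag2/Dntt-negative cells the libraries parted, with 339 CPM with anti-PD-1 and 642 in CR but 147 with ERBB2i and 75.5 with the combination.

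Itm2a, a membrane protein induced by positive selection, set anti-PD-1 and CR apart from ERBB2i and the combination. Cd4-only Rag2/Dntt-negative cells held 1653 CPM (1524 to 1789) with anti-PD-1 and 1795 (1696 to 1900) in CR, against 49.7 (22.7 to 94.4) with ERBB2i and 35.6 from 1 UMI with the combination. Cd8a-only Rag2/Dntt-negative cells held 557 and 564 CPM in the former and 27.1 and 28.3 in the latter. Cells with both held 71.1 CPM with anti-PD-1 and 141 CPM in CR. In tumour cells Itm2a was 100 CPM with anti-PD-1 and 0.0191 to 1.24 CPM in vehicle, ERBB2i and combination, so the lowest T-lineage values of anti-PD-1, 53.3 to 93.8 CPM in Rag2/Dntt-positive cells with both, neither or Cd8a only, lay under that of the tumour cells of the same library. The part of free RNA in them was not tested.

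Ccr9, the CCL25 receptor that places immature cells in the cortex and also guides T cells to the gut, was highest among Rag2/Dntt-negative cells with both, at 1219 CPM in CR and 783 CPM with anti-PD-1. Over all cells with both it was 411 CPM (388 to 435) with anti-PD-1 and 965 CPM (939 to 991) in CR. Cd4-only Rag2/Dntt-negative cells held 338 CPM with anti-PD-1 and 777 in CR, 5.53 from 1 UMI with ERBB2i, and no UMI in 23 cells of the combination, with an exact upper limit of 131 CPM. A Ccr9 UMI was found in 38.7% of T-lineage cells with anti-PD-1 (20% thinned) and 63.7% in CR (36.8%), but in 1.38% with ERBB2i (0.488%) and 1.42% with the combination (0.712%). Tumour cells gave 1.66% (0.427%), 0.204% (0.0233%) and 0.318% (0.073%) with anti-PD-1, ERBB2i and combination. Their median depths were 3183, 2681 and 3100 UMIs, against 1589.5, 1095 and 1049 UMIs for the T-lineage cells. The shares of ERBB2i and the combination thus lay above those of deeper tumour cells. That of the combination rests on 4 Ccr9 UMIs, which is 11.3 CPM beside a 3-count limit of 8.49 CPM. Its thinned interval (0.0863% to 2.55%) begins close to the thinned tumour share.

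Ccr7, the receptor for CCL19 and CCL21, was barely detected in cells with both, at 5.52 CPM (3.15 to 8.96) from 16 UMIs with anti-PD-1 and 12.2 CPM (9.48 to 15.5) from 68 UMIs in CR. In Cd4-only Rag2/Dntt-negative cells it was 248 CPM with anti-PD-1, 249 with ERBB2i, 178 with the combination and 268 in CR, all with overlapping intervals. In Cd8a-only Rag2/Dntt-negative cells it was highest with ERBB2i at 343 CPM (283 to 412), with 121 with anti-PD-1, 198 with the combination and 197 in CR.

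S1pr1, the exit receptor itself, had the fewest UMIs of the members. Cells with both held 3.45 CPM from 10 UMIs with anti-PD-1 and 6.28 CPM from 35 UMIs in CR. In Cd4-only Rag2/Dntt-negative cells S1pr1 was 62.6 CPM (39.7 to 94) with anti-PD-1, 508 (410 to 624) with ERBB2i, 213 (78.3 to 465) with the combination and 114 (90.3 to 143) in CR. The ERBB2i level lay above those of anti-PD-1 and CR beyond the intervals. Cd8a-only Rag2/Dntt-negative cells repeated this order, with 74.3, 298, 104 and 92.1 CPM.

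Klf2, the factor that switches on S1pr1, followed S1pr1 at a higher count. Cells with both held 23.5 CPM (18.2 to 29.7) with anti-PD-1 and 75.1 CPM (68 to 82.6) in CR. Cd4-only Rag2/Dntt-negative cells held 599 CPM (522 to 684) with anti-PD-1, 1791 (1601 to 1997) with ERBB2i, 1423 (1017 to 1938) with the combination and 859 (790 to 932) in CR, and no interval of the first and last overlapped that of ERBB2i. A Klf2 UMI was found in 60.8% of ERBB2i T-lineage cells (44.1% thinned) and 9.92% of those of anti-PD-1 (5.49%), beside 7.89% (2.42%) and 2.77% (0.63%) of the tumour cells of these libraries.

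Il7r, the receptor chain for the survival cytokine IL-7, was 7.59 CPM (4.76 to 11.5) in cells with both with anti-PD-1 and 22.6 CPM (18.8 to 26.9) in CR. Cd4-only Rag2/Dntt-negative cells held 242 CPM (195 to 298) with anti-PD-1, 1708 (1523 to 1909) with ERBB2i, 712 (435 to 1099) with the combination and 367 (323 to 416) in CR. The 3 highest strata were all ERBB2i, of which Cd4-only cells and Cd8a-only cells, at 1591 CPM (1458 to 1733), did not differ beyond their intervals.

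**Figure D2:**
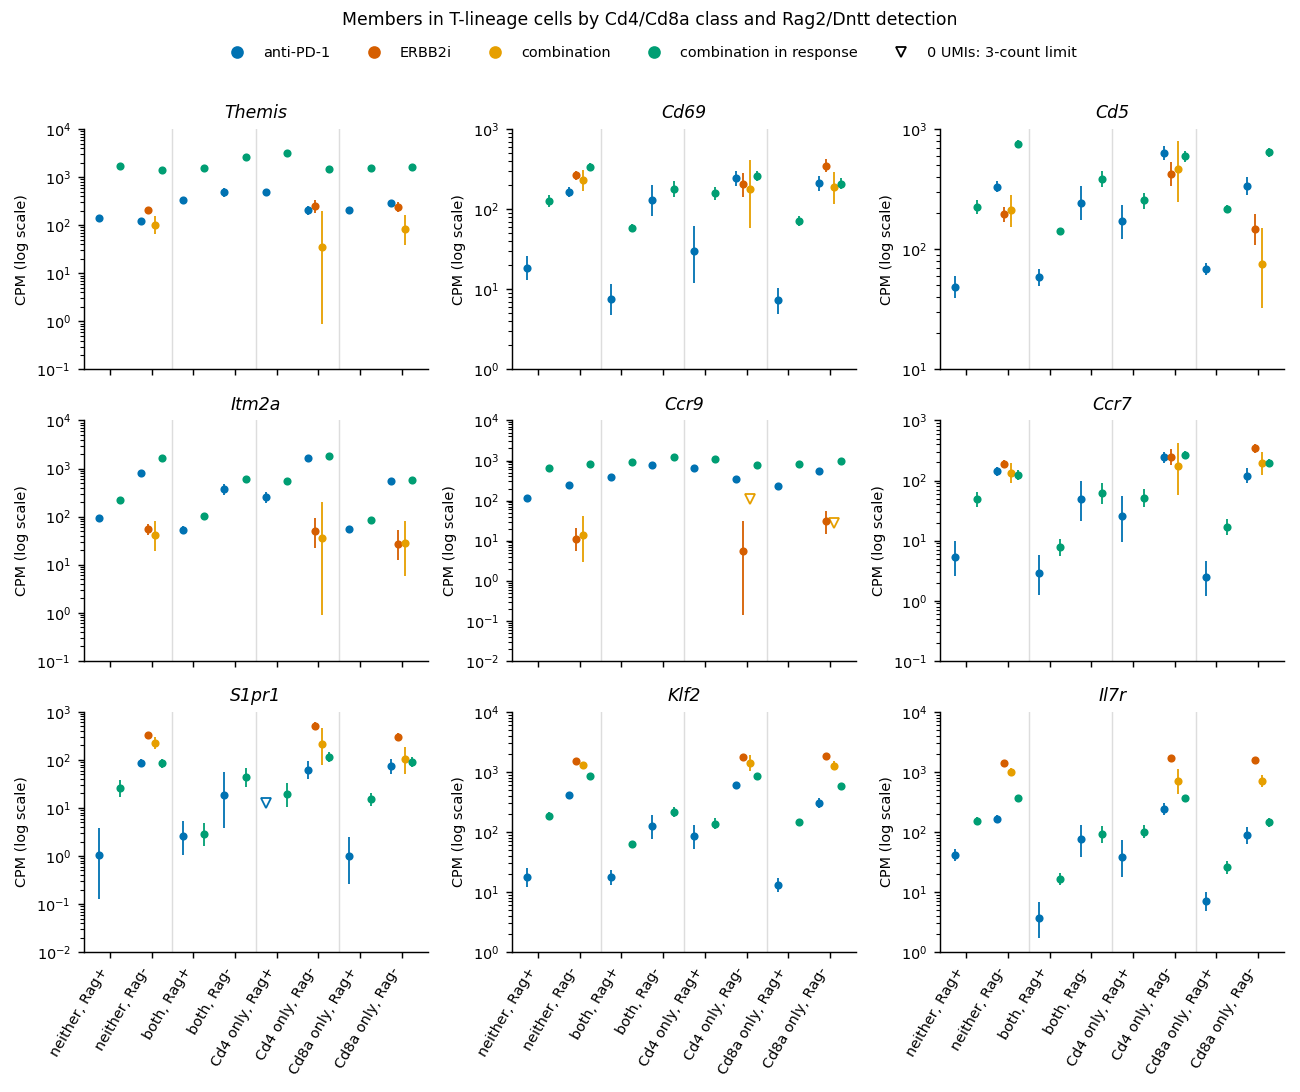
Level of each member (y axis, CPM on a log scale, 95% Poisson intervals) in the strata of T-lineage cells with at least 20 cells (x axis, where Rag+ and Rag- mean Rag2/Dntt-positive and negative), with 1 colour for each library and open triangles for a count of 0 set at the limit of 3 counts. Klf2, S1pr1 and Il7r have their lowest values in Rag+ strata of anti-PD-1 and their highest in ERBB2i, while Ccr9 stands lowest in ERBB2i and combination. For Klf2 and Il7r some Rag+ strata of anti-PD-1 lie above Rag+ strata of combination in response.

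Whether the members differ between classes was first asked within a library, comparing Cd4-only Rag2/Dntt-negative cells with all cells of both coreceptors. The latter were mostly Rag2/Dntt-positive, so coreceptor class and Rag2/Dntt detection change together in this comparison. The same holds for Cd8a-only cells below. A gene was compared where its UMIs over both sides reached 20, and called where the ratio of CPM was at least 2-fold. Of the 9 members 7 were at least 2-fold higher in Cd4-only cells with anti-PD-1, where 12.9% of all 9071 genes compared were higher and 14.6% lower. The same 7 were higher in CR (8.18% higher and 11.9% lower of 10318 genes). They were Cd69, Cd5, Itm2a, Ccr7, S1pr1, Klf2 and Il7r. On the log2 scale the ratio reached 5.49 (4.71 to 6.35) for Ccr7 and 5.00 (4.31 to 5.74) for Il7r with anti-PD-1, and 4.45 (4.04 to 4.88) and 4.02 (3.70 to 4.34) in CR. Themis, at -0.76 (-1.12 to -0.42) and -0.12 (-0.22 to -0.03), and Ccr9, at -0.28 and -0.31, stayed within 2-fold. The members' median was 4.18 with anti-PD-1 and 3.52 in CR, beside -0.02 and -0.06 over all genes. In Rag2/Dntt-negative cells with both, Cd69 was 132 CPM with anti-PD-1 and 181 in CR, within 2-fold of the Cd4-only 242 and 262 CPM. Cd5 was 244 and 386 CPM there, against 634 and 593 CPM in Cd4-only cells, so within 2-fold in CR only. Itm2a, Ccr7, S1pr1, Klf2 and Il7r stayed more than 2-fold higher in Cd4-only cells of both libraries.

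In Cd8a-only Rag2/Dntt-negative cells against cells with both, the 7 higher members were the same in both libraries. Here 9.94% of genes were higher and 9.88% lower with anti-PD-1, and 6.82% and 10.2% in CR. The members' median log2 ratio was 3.55 and 2.00, beside -0.02 and -0.06 over all genes. Cd69 was 3.86 (3.31 to 4.43) higher on the log2 scale with anti-PD-1 and 1.61 (1.34 to 1.88) in CR, and S1pr1 4.43 (3.36 to 5.63) and 3.87 (3.27 to 4.50). Ccr9, at 0.39 (0.17 to 0.60) and -0.01 (-0.13 to 0.10), and Themis, at -0.28 (-0.57 to 0.00) and -0.01 (-0.10 to 0.08), stayed within 2-fold. Against Rag2/Dntt-negative cells with both, Cd69, Cd5, Itm2a and Il7r of Cd8a-only cells lay within 2-fold in both libraries. They were 209, 642, 564 and 145 CPM in CR, beside 181, 386, 598 and 91.5 CPM. With anti-PD-1 they were 210, 339, 557 and 89.1 CPM, beside 132, 244, 376 and 75.2 CPM. Ccr7, S1pr1 and Klf2 stayed more than 2-fold higher in Cd8a-only cells. The 4 effector T cell markers moved with these classes. They summed to 2630 CPM in Cd8a-only Rag2/Dntt-negative cells of anti-PD-1, against 8.03 CPM in Rag2/Dntt-positive and 201 CPM in negative cells with both, and to 1560 CPM against 24 and 295 CPM in CR. Their part in the members' values was not tested. Over the alternatives run, the number of members past 2-fold lay between 6 and 9 in Cd4-only and 7 and 8 in Cd8a-only cells of anti-PD-1, at 7 in Cd4-only and between 5 and 7 in Cd8a-only cells of CR. Here and below, shares of all genes are those of the main comparison, and for the alternatives they are given only where stated.

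Depth and proliferation moved with the classes. The median was 2042 UMIs in cells with both and 1128.5 in Cd4-only Rag2/Dntt-negative cells of anti-PD-1, but 1346.5 and 1503 in CR, the other way round. In Cd8a-only Rag2/Dntt-negative cells it was 1096 UMIs with anti-PD-1 and 1195 in CR, under that of cells with both in each library. Mki67 and Top2a summed to 2900 CPM in Rag2/Dntt-positive cells with both and 642 CPM in Cd4-only Rag2/Dntt-negative cells of anti-PD-1, and to 1660 and 119 CPM in CR. Without the cells that held a UMI of either gene, the same 7 were past 2-fold in CR. In anti-PD-1 Themis, at -1.42 in Cd4-only and -1.08 in Cd8a-only cells, then passed 2-fold lower, as did Ccr9 in Cd4-only cells at -1.49. Shares of all genes without the cycling cells are not given, so these counts have no background beside them.

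**Figure D3:**
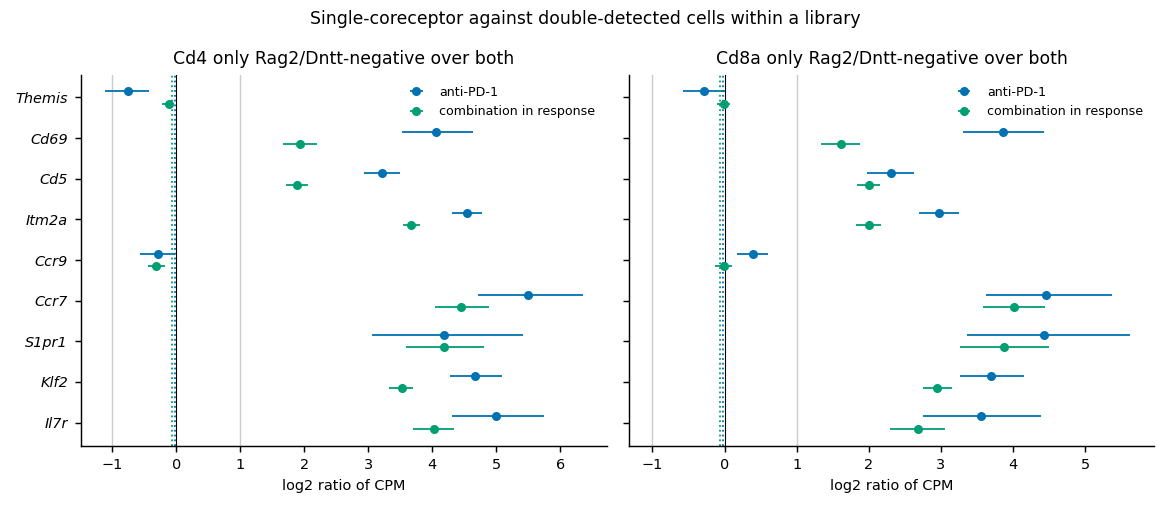
Log2 ratio of CPM (x axis, 95% counting intervals) of each member (y axis) in Cd4-only (left) and Cd8a-only (right) Rag2/Dntt-negative cells over cells with both coreceptors, in anti-PD-1 and combination in response, with grey lines at 2-fold and dotted lines at the median of all genes. Themis and Ccr9 lie near 0 and the other 7 members beyond 2-fold in both libraries.

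Other genes of the pathway were counted over lists chosen by function, beside 12.9% of all genes higher and 14.6% lower with anti-PD-1, and 8.18% and 11.9% in CR. Of 16 genes of the selection signal, 13 were at least 2-fold higher and 0 lower in Cd4-only Rag2/Dntt-negative cells of anti-PD-1, and 9 higher and 0 lower in CR. Egr1, an immediate early gene, was 17.6-fold and 5.32-fold higher, Nr4a1, a reporter of receptor signalling, 24.4-fold and 5.53-fold, and Zbtb7b, the factor of the CD4 lineage, 76.3-fold and 26.7-fold. Of 14 genes of egress and migration, 12 were measured with anti-PD-1, with 4 higher and 1 lower, and 13 in CR, with 4 higher and 0 lower. Foxo1, an activator of Klf2 and Il7r, was 3.22-fold and 2.13-fold higher. Of 12 genes of the early and double positive programme 11 were measured, with 2 higher and 7 lower with anti-PD-1 and 0 higher and 5 lower in CR. The lower genes include Cd8b1, the partner chain of Cd8a, in each library, although Cd4-only cells were called by the absence of Cd8a. These cells were also called by the absence of Rag2 and Dntt, so the class rule itself bears on the counts of this list. Ptcra, the surrogate alpha chain of the immature receptor, was 8.79-fold and 9.15-fold lower.

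Among the cells with both coreceptors, those with Rag2 or Dntt detected were compared with those without. Rag2/Dntt-positive cells were lower in 6 of 7 measured members with anti-PD-1 (8.75% of genes higher, 10.9% lower) and in 7 of 9 in CR (9.74% higher, 7.64% lower). In CR these were Cd69, Cd5, Itm2a, Ccr7, S1pr1, Klf2 and Il7r. Itm2a was 101 CPM in Rag2/Dntt-positive and 598 CPM in Rag2/Dntt-negative cells of CR, a log2 difference of -2.56 (-2.78 to -2.34), and 53.3 and 376 CPM with anti-PD-1. This comparison rested on how cells were classified. The median was 2295 UMIs in positive and 877 in negative cells of anti-PD-1, and 1380 and 1108 in CR. With classes taken from cells thinned to 500 UMIs the counts were 0 with anti-PD-1 and 2 in CR, and without cycling cells the count was 2 with anti-PD-1.

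Cells with both coreceptors were further split by Cd69. In CR 92 cells with both coreceptors held a Cd69 UMI after thinning and 2982 did not. Itm2a was 435 CPM in the former and 111 CPM in the latter, Cd5 326 and 145 CPM, Klf2 109 and 53.7 CPM and Il7r 65.2 and 15.4 CPM, so that 4 of 6 measured members were at least 2-fold higher in Cd69-detected cells (9.34% of genes higher, 8.04% lower). The Klf2 and Il7r values rest on 5 and 3 UMIs, their log2 intervals (-0.64 to 2.30 and -0.30 to 3.81) include 0, and with at least 2 Cd3 UMIs required of a cell the count was 0. Anti-PD-1 held under 20 such cells.

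Cd4-only Rag2/Dntt-negative cells were also split by Klf2, thinned in the same way. In CR, the 69 cells with a Klf2 UMI had 406 CPM of S1pr1 against 34.6 CPM in the 347 cells without, a log2 ratio of 3.55 (2.08 to 5.22). Il7r was 841 against 190 CPM and Ccr7 377 against 138 CPM, while Themis was 145 against 2700 CPM, a log2 ratio of -4.22 (-5.85 to -2.99), and Ccr9 232 against 1090 CPM. Thus 3 of 8 members were higher and 2 lower, with 9.28% of genes higher and 22.2% lower and an all-gene median of -0.25 (14.9% and 18.1% with median-of-ratios scaling, which brings that median to about 0). These 5 kept their sign under all alternatives run, where Il7r ranged from 0.10 to 2.40 and so did not always pass 2-fold. In anti-PD-1 (47 and 215 cells) 0 of 7 measured members were higher and 5 lower, Cd69, Cd5, Itm2a, Ccr9 and Il7r, with Cd69 past 2-fold only as its 0 UMIs in the Klf2-detected cells were set to 3, since the interval of its log2 ratio reached -0.69 (5.19% of genes higher, 13.7% lower). S1pr1 fell short of 20 UMIs there, with 7 in each set, which is 298 against 65.1 CPM and a log2 ratio of 2.19 (0.45 to 3.93). Ccr9 was 42.6 against 474 CPM, from 1 and 51 UMIs. Il7r was 128 against 335 CPM, from 3 and 36 UMIs, and the interval of its log2 ratio (-3.73 to 0.27) includes 0. In ERBB2i (63 and 81 cells) 0 of 4 were higher and 1, Themis, lower (4.81% and 5.33%, or 3.44% and 6.53% with median-of-ratios scaling). The Themis value rests on 6 and 18 UMIs, a log2 ratio of -1.22 (-2.84 to 0.17), whose interval includes 0. S1pr1 was 571 against 617 CPM, a log2 ratio of -0.11 (-1.07 to 0.82). The anti-PD-1 and ERBB2i counts moved under most alternatives.

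Within Rag2/Dntt-negative cells, the CD4 and CD8 branches were compared. Itm2a was higher in Cd4-only than Cd8a-only cells in both libraries where it was abundant, by a log2 ratio of 1.57 (1.35 to 1.80) with anti-PD-1 and 1.67 (1.51 to 1.83) in CR. Il7r was higher there as well, by 1.44 (0.87 to 2.04) and 1.34 (1.01 to 1.68), but stood level with ERBB2i at 0.10 (-0.11 to 0.31) and with the combination at -0.01 (-0.80 to 0.71). Cd5 was higher in Cd4-only cells of ERBB2i by 1.53 (0.99 to 2.08) and of the combination by 2.62 (1.24 to 4.09), and stood at -0.11 (-0.31 to 0.08) in CR. In all, 3 of 9 members were at least 2-fold higher with anti-PD-1 (5.49% of genes higher, 5.69% lower), 1 of 7 with ERBB2i (5.18%, 5.67%), 1 of 5 with the combination (7.28%, 12.3%) and 2 of 9 in CR (3.44%, 3.72%), and 0 were lower in any. The third with anti-PD-1 was Ccr7, at 1.03 (0.51 to 1.56). Without cycling cells the anti-PD-1 count was 1, and with cells classified after thinning it was 7 with anti-PD-1 and 5 in CR. The shares of all genes under these alternatives are not given, so their counts have no background beside them.

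Between libraries, Cd4-only Rag2/Dntt-negative cells were set against those of ERBB2i, whose cells serve as reference for both comparisons, so these are not independent. In anti-PD-1 Itm2a was 33.2-fold higher than with ERBB2i and Ccr9 61.1-fold, the latter from 124 and 1 UMIs with a log2 interval of 3.43 to 11.25. There S1pr1 was 8.12-fold, Il7r 7.05-fold and Klf2 2.99-fold lower. That is 2 of 9 members higher and 3 lower (12.5% of genes higher, 16.5% lower). In CR Themis was 6.01-fold, Itm2a 36.1-fold and Ccr9 141-fold higher (log2 interval 4.65 to 12.44), and S1pr1 4.44-fold, Il7r 4.65-fold and Klf2 2.08-fold lower, 3 of 9 in each direction (16.8% higher, 9.69% lower, all-gene median 0.14). Cd69, Cd5 and Ccr7 lay within 2-fold in both. Effector T cell markers stood at 4370 CPM in these cells of ERBB2i, 1350 with the combination, 180 with anti-PD-1 and 93.6 in CR, and regulatory T cell markers at 475, 640, 191 and 230 CPM. B cells also held less Klf2 with anti-PD-1, at 473 CPM (411 to 542) against 1430 CPM (1250 to 1630) with ERBB2i, and less S1pr1, at 77.4 CPM (53.6 to 108) against 202 CPM (137 to 287), while the 26 B cells of CR held 1400 CPM (1110 to 1730) of Klf2 and 118 CPM (47.4 to 243) of S1pr1. The part of these in the differences was not tested, and treatment, animal and library cannot be told apart.

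The pathway lists were counted in these comparisons too, beside the 12.5% of all genes higher and 16.5% lower with anti-PD-1, and 16.8% and 9.69% in CR. Of 12 genes of the early and double positive programme 6 and 8 were measured, with 4 and 6 higher and 1 lower in each, and a median log2 ratio of 1.74 and 2.62. Arpp21, a thymic phosphoprotein, was 6.9-fold and 49.4-fold higher from 3 UMIs with ERBB2i, and Cd8b1, the beta chain of CD8, 5.37-fold and 7.43-fold, in cells called by the absence of Cd8a and of Rag2 and Dntt. Of the 16 selection signal genes 7 were at least 2-fold higher and 1 lower with anti-PD-1 than with ERBB2i, and 10 higher and 1 lower in CR. The gene that was lower in both was Runx3, the factor of the CD8 and cytotoxic programme, by 3.48-fold and 3.72-fold. Of the egress and migration genes 10 and 13 were measured, with 0 and 2 higher and 4 and 5 lower. They included Cxcr4, which holds cells in the cortex and marrow, 8.49-fold and 4.28-fold lower, and Itga4, an integrin chain for entry into tissue, 6.66-fold and 5.17-fold lower.

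The libraries rich in cells with both coreceptors were compared with each other in each class. In cells with both, 7 of 9 members were at least 2-fold higher in CR than with anti-PD-1, but so were 24.6% of all genes (7.43% lower), and the median over all genes was 0.37 on the log2 scale. The members' median was 1.23. Themis stood at 2.24 (2.14 to 2.33), Cd69 at 2.24 (1.78 to 2.74) and Klf2 at 1.68 (1.31 to 2.07), well above that shift. S1pr1 at 0.87 (-0.18 to 2.04) and Ccr7 at 1.15 (0.34 to 2.03) did not lie beyond it. B cells held 539 CPM of Themis in CR (26 cells) and 29.6 CPM with anti-PD-1 (223 cells). Their Cd69 was 438 and 56.9 CPM and their Klf2 1400 and 473 CPM. Cd5, Itm2a and Il7r had no UMI in the B cells of CR. The part of free RNA or library in these differences was not tested. With median-of-ratios scaling, which sets the shift to about 0, 4 of 9 were past 2-fold (13.3% of genes higher, 14.4% lower). Without cycling cells 4 were past 2-fold, and with classes from thinned cells 3. In Cd4-only Rag2/Dntt-negative cells 2 of 9 were higher, Themis at 2.87 (2.53 to 3.23) and Ccr9 at 1.20, with 21.1% of genes higher, 8.22% lower and an all-gene median of 0.25. In Cd8a-only Rag2/Dntt-negative cells only Themis was, at 2.51 (2.23 to 2.80), with 21.0% higher, 8.28% lower and a median of 0.25, but 6 were past 2-fold with classes from thinned cells and 5 where Cd8b1 also counted as CD8. The shares of all genes under these alternative classes are not given, so their counts have no background beside them. In Cd4-only cells 1 was past 2-fold, with the other scaling (14.3% of genes higher, 13.2% lower) or without cycling cells, and that scaling gave 14.6% and 13.2% in Cd8a-only cells. Cd69, Cd5, Itm2a and Ccr7 of Cd4-only cells lay between -0.10 and 0.12. Erythroid markers summed to 304 CPM in T-lineage cells of CR and 36.8 CPM with anti-PD-1, and their part in the shift was not tested.

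**Figure D4:**
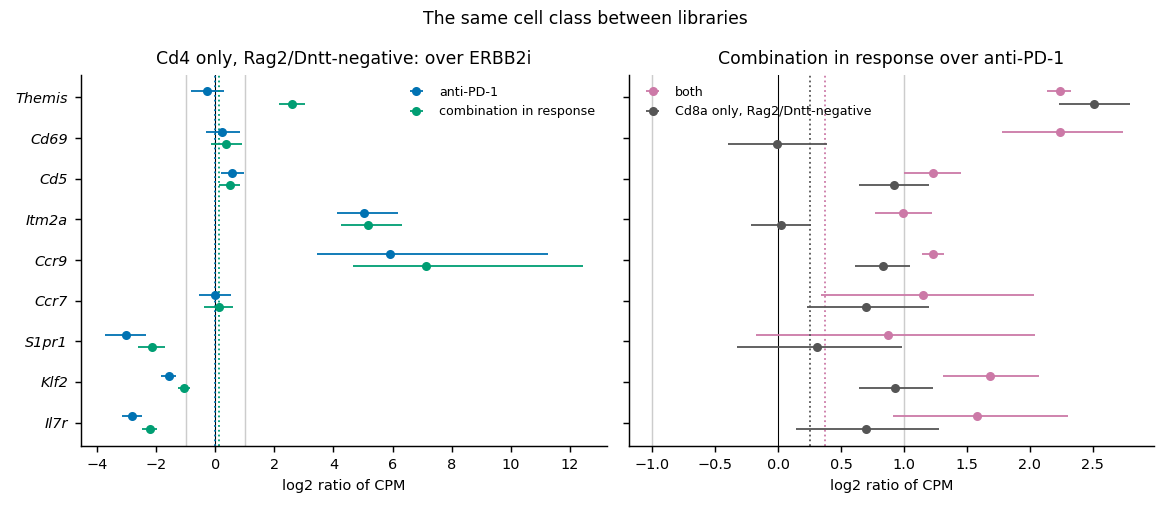
Log2 ratio of CPM (x axis, 95% counting intervals) of each member (y axis) in Cd4-only Rag2/Dntt-negative cells over ERBB2i (left, for anti-PD-1 and for combination in response) and in 2 classes of combination in response over anti-PD-1 (right), with dotted lines at the median of all genes. Itm2a and Ccr9 lie far right and S1pr1, Klf2 and Il7r left of 0 against ERBB2i, and Themis lies beyond 2 in the right panel.

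The combination library was compared with that of ERBB2i in Cd4-only and Cd8a-only cells. Each is 1 library, so treatment, animal and library cannot be told apart in these differences. In Cd4-only cells (23 against 145) 0 of 7 measured members were higher and 3, Themis, S1pr1 and Il7r, lower with the combination than with ERBB2i (10.0% of genes higher, 14.8% lower). The Themis value rests on 1 UMI with the combination, a log2 ratio of -2.80 (-8.13 to -0.24). In Cd8a-only cells (66 against 242) 0 of 7 were higher and 3, Cd5, S1pr1 and Il7r, lower (8.15% higher, 12.0% lower). The Cd5 value rests on 8 UMIs with the combination, a log2 ratio of -1.04 (-2.33 to 0.05), whose interval includes 0. Il7r was 675 CPM with the combination and 1589 CPM with ERBB2i in Cd8a-only cells, a log2 ratio of -1.23 (-1.60 to -0.89), and 712 and 1701 CPM in Cd4-only cells, a ratio of -1.26 (-1.99 to -0.61). S1pr1 stood at -1.60 (-2.65 to -0.70) and -1.26 (-2.74 to -0.08), and Klf2 at -0.61 (-0.89 to -0.34) and -0.33 (-0.84 to 0.15). Tumour markers summed to 773 CPM in T-lineage cells of the combination and 219 CPM with ERBB2i, and myeloid markers to 1190 and 299 CPM, and their part in the lower values was not tested. Without cycling cells 0 members were past 2-fold in Cd8a-only cells, and without the mitochondrial and outlier filters 1 was. Cells with neither coreceptor formed the largest class of both libraries. In the 192 of the combination and 832 of ERBB2i that were Rag2/Dntt-negative, Il7r was 997 CPM (868 to 1141) and 1413 CPM (1340 to 1490), and S1pr1 226 CPM (166 to 299) and 330 CPM (295 to 368), each less than 2-fold apart.

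Across the 21 strata the members fell into sets that varied together. Klf2 and S1pr1, Klf2 and Ccr7 (both r = 0.95), Klf2 and Il7r, and S1pr1 and Il7r (both r = 0.94) were the closest pairs of log2(CPM + 10), and Cd69 was near them, with r = 0.91 to both Klf2 and Ccr7. Themis and Ccr9 formed the other pair (r = 0.77), and Ccr9 ran against Il7r (r = -0.67) and S1pr1 (r = -0.59). Itm2a lay nearest to Cd5 (r = 0.76) and Ccr9 (r = 0.68) and showed no relation to Klf2 (r = 0.07). Strata of a library share its depth and its free RNA, and the values are descriptions over these strata.

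**Figure D5:**
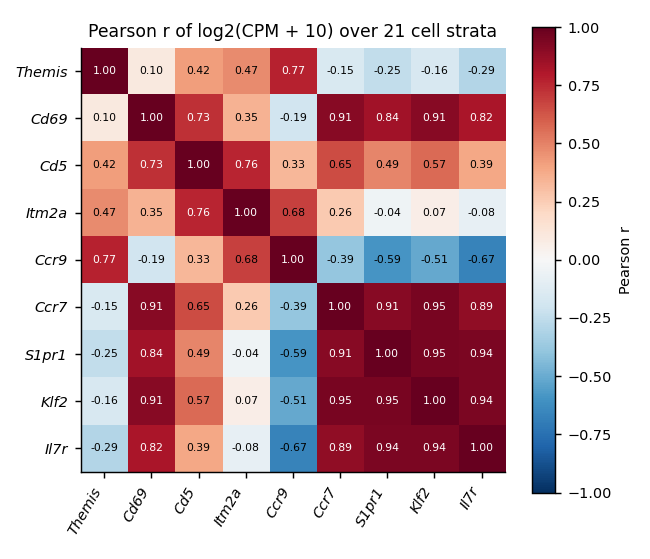
Pearson r (colour and number) between members of log2(CPM + 10) over 21 strata of library, Cd4/Cd8a class and Rag2/Dntt detection with at least 50 cells. Ccr7, S1pr1, Klf2, Il7r and Cd69 form a block from 0.82 to 0.95, apart from Themis and Ccr9 at 0.77.

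Of 8972 other genes with at least 200 UMIs, those most like Klf2 over the strata were Gimap3 (r = 0.972), a GTPase of lymphocyte survival, Stk10 (r = 0.972), a lymphocyte kinase, and Gimap5 (r = 0.971). Gimap3 was also the second gene for S1pr1 (r = 0.958), after Gm2682, and Gimap4 the first for Ccr7 (r = 0.979). Cd69 was most like Fyn (r = 0.954), a kinase of the antigen receptor, Cytip and Bcl2 (r = 0.945), the survival factor. Themis was most like Camk4 (r = 0.979), a calcium-dependent kinase, Usp3 and Aff3. Ccr9 was most like Cnn3 (r = 0.963), Gm4258 and Ephb6 (r = 0.948), an ephrin receptor of T cells. Il7r was most like 9930111J21Rik2 (r = 0.965), Cd5 like Lrp10 (r = 0.924) and Itm2a like B630019A10Rik (r = 0.953).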

How the data were processed

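Lung tumours were profiled by single-cell RNA sequencing in 5 groups, 1 library each, and samples were grouped by their treatment label. The deposited values are raw UMI counts per gene and barcode, made by the authors from Singleron SCOPE-chip libraries, for which the study's methods name CeleScope. The submitters' processing notes name mm10, Cell Ranger and Scanpy without their roles, and whether counting used strand is not stated there. Coordinates and promoters are RefSeq's on GRCm38.p6, the same assembly as mm10.

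Kept barcodes had more than 150 genes and at most 8% mitochondrial UMIs, had that share no more than 3 MADs (median absolute deviations) over its median, and lay within 5 MADs for log UMIs, log genes and the share of the top 20 genes. Doublets were removed with Scrublet in scanpy 1.11.5, by its automatic threshold in anti-PD-1 (2.28% of barcodes) and by a fixed score of 0.25 in the other libraries (1.42% to 3.34%), where the automatic one marked under 0.5%. Summed UMIs were given as CPM with exact Poisson 95% intervals, shares with exact Clopper-Pearson intervals, and log2 ratios of CPM with exact conditional intervals (scipy 1.17.1). Classes under 20 cells gave no ratio, genes under 20 UMIs over both sides no call, and a count of 0 was set to 3 as a limit. With 1 library per group no test across genes or samples was made. The rule for calls past 2-fold was run on simulated counts whose known changes were much larger than 2-fold. They were set in genes with at least 20 expected UMIs, with counting error only, at the class sizes of a single comparison. The simulation therefore does not show how the rule acts near 2-fold, on few UMIs or in small classes. Thinned cells hold 500 UMIs drawn without replacement.

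All 9 members are named. Other pathway genes are named from 3 lists only where past 2-fold, and the 3 genes with the highest Pearson correlation to each member were picked from genes with at least 200 UMIs, without rule, mitochondrial, ribosomal, haemoglobin, immunoglobulin, receptor variable and sex-linked genes. Members and lists were chosen with earlier results of these data known, and some of the comparisons (the Klf2 split, coreceptor branches, and 3 between libraries) were added after the data had been seen.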

Additional observations from a re-analysis of the deposited data

Results flagged for a closer look

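Cd69 differed between Cd4-only and Cd8a-only Rag2/Dntt-negative cells in opposite directions in a pair of libraries. On the log2 scale it stood at -0.77 (-1.35 to -0.23) in ERBB2i, where Cd8a-only cells held 349 CPM and Cd4-only cells 204 CPM, and at 0.32 (0.01 to 0.64) in combination in response, with 209 and 262 CPM. Each group is 1 library, and the difference between the libraries was not tested.

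T-lineage barcodes of the vehicle library lay almost entirely outside the comparisons: the mitochondrial and outlier filters removed 65 of 67. Among the 67, at a median of 1638 UMIs, Klf2 was 2288 CPM (2053 to 2543), Il7r 818 (680 to 976), S1pr1 266 (190 to 362), Ccr7 346 (258 to 454), Cd69 386 (293 to 499), Cd5 279 (201 to 378) and Themis 220 (151 to 308). Itm2a and Ccr9 had 2 UMIs each, 13.3 CPM (1.61 to 48.1). None of these barcodes held both Cd4 and Cd8a or a UMI of Rag2 or Dntt. A high mitochondrial share can mark damaged cells, so the levels are given as values.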

How the results depend on the processing

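No paired analysis was possible because each group is 1 library, and for the same reason no replicate could be left out. Counts below are members past 2-fold, values are log2 ratios, and the cause of each shift was not tested. Shares of all genes are not given beside these counts, which therefore do not set the members apart from other genes. Without the mitochondrial and outlier filters the counts were 1 in Cd8a-only cells of combination over ERBB2i, 2 for Cd4-only over Cd8a-only in combination, 1 for the Cd69 split (Klf2 at -0.72), and 2 and 0 for the Klf2 split in anti-PD-1 (Il7r at 0.27) and ERBB2i (Themis at 0.25). With doublets kept, the Klf2 split in anti-PD-1 gave 3. With classes from thinned cells, Rag2/Dntt-positive over negative gave 0 in anti-PD-1 (Cd69 at 1.85, Ccr9 at 0.40) and 2 in combination in response (Cd69 at 0.17), combination in response over anti-PD-1 gave 3 in cells with both (Ccr7 at -0.68) and 6 in Cd8a-only cells, Cd4-only over Cd8a-only gave 7 with anti-PD-1, 2 with ERBB2i and 5 for combination in response, the Cd69 split 2, and the Klf2 split 3 in anti-PD-1 (Cd5 at 0.22, Il7r at 1.33) and 0 in ERBB2i. With at least 2 Cd3 UMIs, Cd8a-only cells of combination in response over anti-PD-1 gave 2, the Cd69 split 0 (Cd5 at -0.01, Klf2 at -0.22) and the Klf2 split in anti-PD-1 3. With Cd8b1 also counted, that Cd8a-only comparison gave 5, Cd4-only over Cd8a-only in anti-PD-1 5, and the Klf2 split 3 in anti-PD-1 (Il7r at 0.65) and 2 in ERBB2i, with Il7r at -0.30 in the Cd69 split. Without cells holding other-lineage UMIs the Klf2 split gave 3 for anti-PD-1 and 0 for ERBB2i (Themis at 0.11). Without cycling cells, an alternative chosen after seeing the data, Rag2/Dntt-positive over negative gave 2 in anti-PD-1 (Ccr9 at 0.02), combination in response over anti-PD-1 gave 4 in cells with both (Ccr7 at -0.42, Il7r at -0.26) and 1 in Cd4-only cells, Cd8a-only cells of combination over ERBB2i 0, Cd4-only over Cd8a-only in anti-PD-1 1, and the Klf2 split 3 with anti-PD-1 and 0 with ERBB2i (Themis at 1.10). Median-of-ratios scaling gave 4 and 1 for combination in response over anti-PD-1 in cells with both and Cd4-only cells, and 2 for the Klf2 split in ERBB2i. All other counts lay within 1.5 times.

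Of the 86 to 90 called member values, the other direction was found for 4 without the filters, 9 with classes from thinned cells, 2 with at least 2 Cd3 UMIs, 2 with Cd8b1, 1 without other-lineage cells and 4 without cycling cells, and for 0 with doublets kept and with the other scaling. Counting Rag1 beside Rag2 and Dntt changed the number of positive cells in no class of any library. That alternative therefore repeated the main setting and could show no shift. With no minimum of UMIs the share of all genes past 2-fold in Cd4-only over Cd8a-only cells was 19.3% with anti-PD-1 (11.2% with the minimum), 17.7% with ERBB2i (10.9%) and 13.3% for combination in response (7.15%), and 19.7% (10.1%) in the Klf2 split of ERBB2i, where fewer UMIs stand behind each gene. The Klf2 and Cd69 splits rest on few cells and UMIs, and the combination library held 23 Cd4-only cells. Combination over ERBB2i in Cd4-only cells could not be run with classes from thinned cells, at least 2 Cd3 UMIs, other-lineage cells left out or cycling cells left out, since under 20 cells were left.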

Other observations

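Chosen after its values were seen: Itm2a was detected in 22.6% of the 4445 tumour cells of anti-PD-1 (4.52% after thinning to 500 UMIs), at 100 CPM, and in 0.014% of tumour cells of vehicle, 0.256% of ERBB2i and 0.0573% of combination. Klf2, at 13.7 to 44.9 CPM, was found in the tumour cells of all 4 libraries that held them. Among B cells, which carry Klf2 and S1pr1 as circulating lymphocytes do, Klf2 was 473 CPM in 223 cells of anti-PD-1, 1430 CPM in 144 cells of ERBB2i, 1290 CPM in 80 cells of combination and 1400 CPM in 26 cells of combination in response, and S1pr1 77.4, 202, 173 and 118 CPM.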
